A study of Mus musculus with 14 samples.

Results

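The TRIM (tripartite motif) genes encode a large family of proteins, most of them RING-type E3 ubiquitin ligases that attach ubiquitin to other proteins. A typical member carries a RING domain, B-box zinc fingers and a coiled coil, followed by a C-terminal domain that differs between subfamilies and selects the targets. Several members are induced by interferon and act in antiviral sensing or viral restriction, while others act in transcription, the cytoskeleton or protein quality control. The genes described here are the rows of the authors' filtered table of normalized counts whose symbol is Trim followed by a number. There were 34 such genes among 10321 rows of that table. Of these, 9 belong to a list of interferon-inducible members (Trim12a, Trim12c, Trim14, Trim25, Trim26, Trim30a, Trim30d, Trim34a and Trim56), and the other 25 were set against them.

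RNA was measured by Smart-seq2, a full-length cDNA method, in 14 libraries of 150 sorted cells each from popliteal lymph nodes of C57BL/6 mice. The cells were endogenous dendritic cells (DCs), which present antigen to T cells, gated as high in MHC class II, CD11c+, CD11b+ and XCR1-. Biotin-positive and biotin-negative DCs (6 libraries each) came from Cd40G5/G5 recipients, in which CD40 carries a pentaglycine tag. These mice had received Cd40G5/G5 DCs pulsed with OVA323-339 peptide (500000 per footpad) and, 18 hours later, 300000 OT-II CD4+ T cells whose CD40 ligand carried the enzyme sortase A (CD40lgSrtA/Y CD4-Cre). A biotin-LPETG substrate (300 nmol per footpad) was given 46 hours after the T cells, so that sortase could mark CD40 on contacted DCs, and nodes were taken at 48 hours. Cd40-null DCs (2 libraries) came from Cd40-/- mice. Both the DCs and the OT-II T cells transferred into these were wild type, so that this group differs from the other two in its own genotype and in what it received. All 3 groups thus come from nodes that held peptide-pulsed DCs and OT-II T cells. The labels give neither ages nor the mouse behind each library, and p-values therefore reflect variation among libraries, which may be technical.

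Library totals ran from 1.45e+07 to 3.33e+07 counts, and all 34 TRIM genes had counts in all 14 libraries. The DC genes Flt3 and Zbtb46 were present throughout (Flt3 907 to 1156 CPM in biotin-positive, 741 to 968 in biotin-negative and 763 and 894 in Cd40-null libraries). Itgam, which encodes the CD11b of the gate, was only at 0.0516 to 5.88 CPM in biotin-positive libraries, against 10.1 to 65 CPM in biotin-negative and 11.2 and 18.3 CPM in Cd40-null libraries. Values below are CPM, counts scaled to a common library size, after correction of library sizes by the trimmed mean of M-values (TMM), and adjusted p-values are from edgeR's quasi-likelihood test over all 14217 genes tested. A gene was called at an adjusted p under 0.05. Of 8 DC markers, Flt3 and Zbtb46 among them, 4 were called lower in biotin-positive than in biotin-negative libraries and 1 (Fscn1) higher. Over all genes the shares were 4.05% lower and 3.7% higher. The 4 were Itgax, which encodes the CD11c of the gate (means 55.5 against 139 CPM), and the MHC class II pathway genes H2-Aa (442 against 1780 CPM), H2-Ab1 (230 against 1250 CPM) and Cd74 (920 against 2740 CPM).

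The interferon-inducible members are introduced by their promoters, because the list as a whole is defined by a response that acts through promoter elements. The interferon-stimulated response element (ISRE) is a promoter element bound by interferon regulatory factors. RefSeq promoters on GRCm38.p6, from 250 bases before to 50 after each gene's start, were matched for 25 of the 34 genes by symbol. Searched on both strands as GAAANNGAAA, the ISRE was found in 6 of 8 matched interferon-inducible members and in 1 of 17 other members (Trim2). The same letters were in 3.99% of 27025 genes with a promoter in the table, and in 15 of 29 matched genes of a general interferon-response list. The interferon-gamma activated site, searched as TTCNNNGAA, was in 0 of 8 interferon-inducible members and in 1 of 17 others (Trim46), against 9.55% of all genes. The stretches that hold the ISRE are printed 5′ to 3′ on the strand of the gene, with the match in capitals. All of these matches read on the opposite strand, so the capitals show the reverse complement of the letters searched.

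Trim30a (chr7:104465194-104465253, minus strand): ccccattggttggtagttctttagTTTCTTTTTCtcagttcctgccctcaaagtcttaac
Trim30d (chr7:104507850-104507909, minus strand): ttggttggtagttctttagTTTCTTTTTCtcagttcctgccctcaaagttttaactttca
Trim12c (chr7:104353350-104353409, minus strand): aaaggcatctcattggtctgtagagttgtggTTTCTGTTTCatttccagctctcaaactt
Trim12a (chr7:104315466-104315495, minus strand): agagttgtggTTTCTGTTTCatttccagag
Trim34a (chr7:104244457-104244486, plus strand): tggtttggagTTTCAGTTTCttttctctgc
Trim26 (chr17:36836964-36837023, plus strand): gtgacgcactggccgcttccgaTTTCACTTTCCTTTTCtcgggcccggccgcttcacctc

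In Trim30a, Trim30d and Trim12c the stretch is the last 60 bases before the start, and the match begins 36, 41 and 29 bases before it. In Trim12a and Trim34a the match begins 10 bases past the RefSeq start, and in Trim26, which has 2 overlapping matches, 160 bases before it. GENCODE, however, starts Trim12a at chr7:104315466, the last base of the stretch printed, and the match lies before that start. A second RefSeq start of Trim30a also had a match, beginning 2 bases past that start. Over the match and 10 bases on either side, Trim30a and Trim30d were identical at 30 of 30 bases and Trim12a and Trim12c at 28 of 30. Trim30a and Trim12c, by the same measure, were identical at 14 of 30. Trim25 and Trim56 had no match in their windows, and Trim14 had no entry. Trim6, Trim34a, Trim12a, Trim12c, Trim30a and Trim30d lie side by side on chromosome 7, from Trim6 at chr7:104218793-104235152 to Trim30d at chr7:104470014-104507849. Trim12a, Trim12c, Trim30a and Trim30d hold stretches in common with other TRIM genes, as does Trim34a with Trim34b, and this bears on their single-gene values below.

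Between biotin-positive and biotin-negative DCs, 1 of the 34 TRIM genes was called, Trim30a, which was lower in biotin-positive libraries. That is 2.94% of the members, against 7.75% of all genes tested (3.7% higher and 4.05% lower). Shares over all genes, here and below, also count genes outside the authors' filtered table, from which every member comes. In a fit of the genes of that table only, 1161 of 10320 genes were called, and again 1 member. No member was higher by the test. In no member were the 2 groups without overlap, whereas 2.6% of all genes were higher without overlap and 2.41% lower without overlap. The family's summed level was nearly the same in the groups, at 1366 ± 51.9 CPM in biotin-positive, 1361 ± 94 CPM in biotin-negative and 1322 ± 23.1 CPM in Cd40-null libraries (SD, n = 6, 6 and 2). Its 2 parts differed in opposite directions between the biotin groups. The 25 other members summed to 939 ± 73.6, 844 ± 89.9 and 876 ± 59.1 CPM in the same order. Of these, Trim35 alone averaged 395.5, 316.1 and 265.8 CPM. The lower sum of the interferon-inducible members is given below.

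Trim30a encodes a RING ligase known in the mouse for restraining NF-κB signalling downstream of Toll-like receptors. Its levels were 52.4, 65.7, 63.2, 46.7, 81.2 and 30.3 CPM in biotin-positive replicates 1 to 6, against 88.2, 97.3, 131, 79.2, 85.4 and 90.9 CPM in biotin-negative replicates 1 to 6 and 76.9 and 54.8 CPM in Cd40-null libraries. The groups overlapped at 1 point, since biotin-positive replicate 5 lay above biotin-negative replicate 4. The means were 56.6 ± 17.5 CPM in biotin-positive libraries and 95.3 ± 18.3 CPM in biotin-negative libraries (SD, n = 6 each), a 1.68-fold lower fitted level (log2 fold change -0.75, SE 0.20, 95% interval -1.17 to -0.33, edgeR adjusted p = 0.0281). Against Cd40-null libraries, neither biotin-positive (log2 fold change -0.22, adjusted p = 0.818) nor biotin-negative libraries (0.53, adjusted p = 0.587) passed the test.

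The call on Trim30a was near the threshold. Leaving out a single library gave adjusted p-values of 0.0565 without biotin-positive replicate 1, 0.0646 without biotin-positive replicate 4, 0.0507 without biotin-negative replicate 2 and 0.0731 without biotin-negative replicate 3, with log2 fold changes between -0.88 and -0.62 over all such fits. Markers of other cells moved with the same groups, and so did those of type 2 DCs, which include Itgam of the gate itself. The summed level of 23 monocyte and macrophage markers was 165 to 337 CPM in biotin-positive libraries, with Mrc1 at 0, against 332 to 1750 CPM in biotin-negative and 459 to 732 CPM in Cd40-null libraries, and 12 of the 23 were lower in biotin-positive than in biotin-negative libraries with none higher. The summed level of 4 Langerhans cell markers was 337 to 513 CPM in biotin-positive libraries, against 59.1 to 162 CPM in biotin-negative and 133 to 165 CPM in Cd40-null libraries, and 3 of the 4 were called higher in biotin-positive than in biotin-negative libraries. The summed level of 6 type 2 DC markers was 105 to 227 CPM in biotin-positive libraries, with Clec10a at 0, against 299 to 521 CPM in biotin-negative and 296 to 312 CPM in Cd40-null libraries, and 4 of the 6 were called lower. Both of these sums separate the biotin groups without overlap. So does that of 9 natural killer (NK) cell markers, at 39 to 72.7 CPM in biotin-positive and 152 to 241 CPM in biotin-negative libraries. In Cd40-null libraries it was 134 to 164 CPM. Of the 4 NK cell markers tested, 2 were called lower in biotin-positive than in biotin-negative libraries. These were Klrk1 (means 42.9 against 143 CPM) and Klrd1 (5.89 against 36.9 CPM). Genes detected numbered 13090 to 13455 in biotin-positive, 14225 to 15742 in biotin-negative and 13113 to 13596 in Cd40-null libraries. With the mean log2 CPM of the monocyte and macrophage markers as a covariate the log2 fold change of Trim30a was -0.69 (SE 0.44, adjusted p = 0.705). With the number of detected genes it was -0.74 (SE 0.44, adjusted p = 0.592), where the SE without a covariate was 0.20. Both covariates separated the biotin groups without overlap (marker mean -0.15 to 1.28 in biotin-positive, 1.65 to 4.10 in biotin-negative libraries). These fits therefore cannot tell either covariate from the group. In bulk libraries, fewer cells of a type and less RNA per cell cannot be told apart, and the part of these cells in the Trim30a difference was not tested.

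Reads of 38 bases can be shared between TRIM copies. Of the 38-base stretches in Trim30a's transcripts, 8.57% occur in transcripts of other genes, chiefly Trim30d. With the counts of Trim30a, Trim30b and Trim30d summed, an alternative chosen after seeing the data, the log2 fold change between biotin-positive and biotin-negative libraries was -0.64 (SE 0.16, adjusted p = 0.0214). For the other copies the shares were 58.8% in Trim43b, 46.7% in Trim34a, 41.9% in Trim12c, 29.8% in Trim12a and 10.3% in Trim30d, and 15 members shared none. Trim13 shared 23.1%, with Gm9359, and Trim59 10.1%. Single-gene values of these 7 genes are uncertain for this reason.

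None of the other 8 interferon-inducible members passed the test. Trim25, the ligase that modifies the RNA sensor RIG-I in human cells, was at 22.5 to 53.3 CPM in biotin-positive libraries (median 33.2), against 34.3 to 66.5 CPM in biotin-negative libraries (median 57.6) and 21.5 and 37.6 CPM in Cd40-null libraries. The biotin groups overlapped, and the difference did not pass the test (log2 fold change -0.63, SE 0.23, adjusted p = 0.113). Trim30d, the neighbour and copy of Trim30a, was at 29.4 to 53.5 CPM in biotin-positive libraries (median 36.8), against 44.7 to 64.5 CPM in biotin-negative libraries (median 51.9) and 24.8 and 42.7 CPM in Cd40-null libraries (log2 fold change -0.43 between the biotin groups, SE 0.18, adjusted p = 0.166). Trim34a was at 52.2 to 126.8 CPM in biotin-positive libraries (median 68.6), against 80.6 to 123.3 CPM in biotin-negative libraries (median 99.8) and 95.8 and 96.4 CPM in Cd40-null libraries. Its highest value of all was in biotin-positive replicate 6, the library lowest in Trim30a, and the difference did not pass the test (log2 fold change -0.41, SE 0.19, adjusted p = 0.225). Without that library, Trim34a, Trim25 and Trim30a were all called lower, with adjusted p-values of 0.019, 0.0498 and 0.0421. In that fit 839 of 14154 genes were called. By contrast, 0 members were called without biotin-positive replicate 1 or 4, or without biotin-negative replicate 2 or 3.

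Trim12a, a mouse relative of human TRIM5, was nearly level, at 25.4 to 32.7 CPM in biotin-positive libraries (median 26.6), against 24.4 to 41 CPM in biotin-negative libraries (median 30.8) and 28.1 and 28.2 CPM in Cd40-null libraries. Trim12c was at 70.2 to 109.5 CPM in biotin-positive libraries (median 90.1), against 78.6 to 113 CPM in biotin-negative libraries (median 87.2) and 78.8 and 87.7 CPM in Cd40-null libraries. Its log2 fold change between the biotin groups was -0.02, with a 95% interval of -0.28 to 0.25, so a change of 2-fold lay well outside the interval. Trim26, a ligase reported to act on interferon induction, was at 60.1 to 102 CPM in biotin-positive libraries (median 83.2), against 49.3 to 125 CPM in biotin-negative libraries (median 62.3) and 72.4 and 85.3 CPM in Cd40-null libraries. Trim14, a member without a RING domain that acts as an adaptor in antiviral signalling, spread widely inside the groups. It was at 3.76 to 32.1 CPM in biotin-positive libraries (median 15.8), against 6.59 to 28.1 CPM in biotin-negative libraries (median 16.4) and 26 and 31.3 CPM in Cd40-null libraries. Trim56, reported to act on STING signalling in human cells, was low everywhere, at 1.75 to 6.31 CPM in biotin-positive libraries (median 4.08), against 2.91 to 8.13 CPM in biotin-negative libraries (median 4.71) and 1.17 and 1.76 CPM in Cd40-null libraries.

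**Figure D1:**
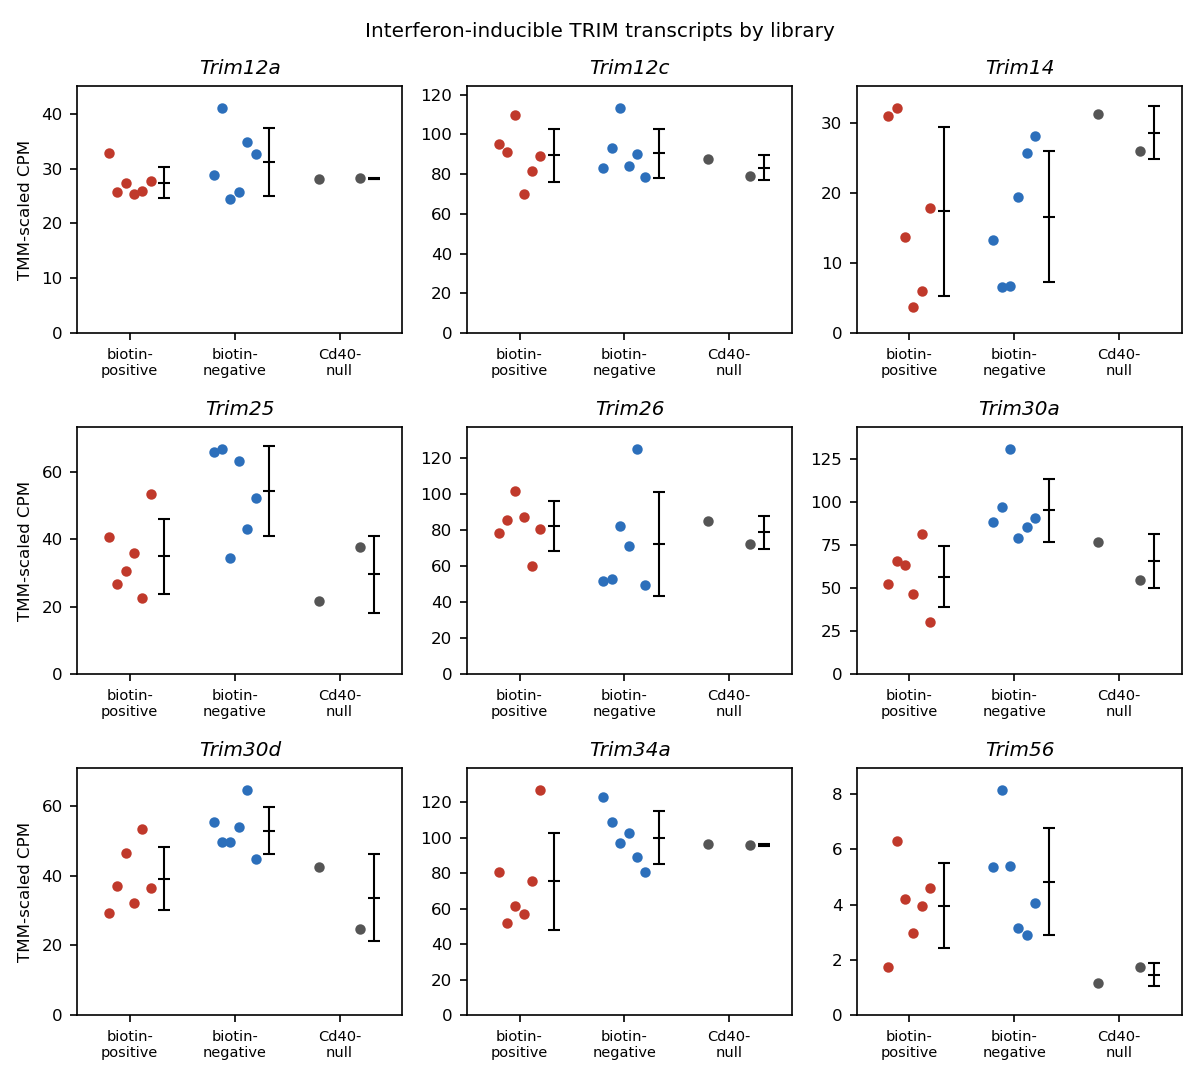
Level of each interferon-inducible TRIM gene in TMM-scaled CPM (linear axis from 0) in every library, with the mean and SD of each group beside the points (n = 6 biotin-positive, 6 biotin-negative and 2 Cd40-null). Trim30a stands lower in 5 of 6 biotin-positive libraries than in every biotin-negative one, while Trim12c differs little between groups and Trim14 varies mainly inside them.

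Taken by counts, 7 of the 9 interferon-inducible members had a fitted value below 0 between biotin-positive and biotin-negative libraries, with a median log2 fold change of -0.29 (-0.10 without biotin-negative replicate 2). Of the other 25 members 10 were below 0, with a median of 0.12, and over all genes tested the median was -0.03. The summed level of the 9 genes was 427 ± 38.7 CPM in biotin-positive, 518 ± 34.5 CPM in biotin-negative and 446 ± 36 CPM in Cd40-null libraries (SD, n = 6, 6 and 2). Biotin-positive sums ran from 361 to 467 CPM and biotin-negative sums from 461 to 561 CPM, so the 2 sets met at their ends. No p-value is given for these sums, since members were chosen with results of these data known. An interferon-response list of wider scope, without TRIM genes, is set beside them. This general list of interferon-response genes had 12 of its 37 tested genes lower in biotin-positive than in biotin-negative libraries and 0 higher, where 4.05% of all genes were lower and 3.7% higher, with a median log2 fold change of -0.71. The monocyte and macrophage, type 2 DC, Langerhans cell and NK cell markers and the number of detected genes move with the same groups, as given above. Their part in these differences and in the sums of the 9 genes was not tested. Among the 12 interferon-response genes called lower were Mx1 (mean 116 CPM in biotin-positive, 440 CPM in biotin-negative libraries, log2 fold change -1.92, adjusted p = 9.46e-06), Lgals3bp (-1.13, adjusted p = 0.000132), Ifitm3 (-2.70, adjusted p = 0.000155) and Ifi27l2a (-2.22, adjusted p = 0.00165). Over Cd40-null libraries 3 genes of the list were lower in biotin-positive libraries and 0 higher, Mx1 and Ifi27l2a among them, where 1.05% of all genes were lower. Between biotin-negative and Cd40-null libraries 0 of the 37 were called. There 7 of the 37 had an unadjusted p under 0.05, as had 1311 of all 14217 genes tested.

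Between biotin-positive and Cd40-null DCs, 0 of the 34 TRIM genes were called by edgeR's quasi-likelihood test, against 2.27% of all genes tested (1.22% higher, 1.05% lower). An unadjusted p under 0.05 was found for 3 of the 34 members and for 1963 of all 14217 genes tested. The interferon-inducible members had a median log2 fold change of 0.06, the others -0.05 and all genes 0.04; the first changes sign with the list or with a library left out, as at -0.05 without Cd40-null replicate 2. Groups did not overlap in 4 members, 2 higher (Trim43b and Trim35) and 2 lower (Trim33 and Trim37), where 7.81% of all genes were higher and 8.07% lower without overlap. Trim43b, one of a set of near-identical copies known from the early mouse embryo, was at 9.65 to 20.1 CPM in biotin-positive libraries (median 13.8), 2.41 to 18.5 CPM in biotin-negative libraries (median 7.51) and 1.45 and 4.10 CPM in Cd40-null libraries. Its log2 fold change over Cd40-null libraries was 2.35 (SE 0.72, adjusted p = 0.109), and with DESeq2 its adjusted p was 0.00623. Only 2 Cd40-null libraries stand behind this, and the copies' reads are shared.

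Between biotin-negative and Cd40-null DCs, 0 of the 34 were called by the same test, against 0.317% of all genes. An unadjusted p under 0.05 was found for 4 of the 34 members (Trim25, Trim30d, Trim56 and Trim43b) and for 1311 of all 14217 genes tested. The interferon-inducible members had a median log2 fold change of 0.15 with 7 of 9 above 0, the others -0.20 with 8 of 25 above 0, and all genes 0.06. The first was 0.35 with detected genes per library as a covariate. Trim23, Trim30a, Trim30d and Trim56 were higher without overlap and Trim27 and Trim3 lower, where 6.23% of all genes were higher and 4.47% lower without overlap. Trim56 was fitted 3.30-fold higher in biotin-negative libraries (log2 fold change 1.72, SE 0.74, adjusted p = 0.499), and DESeq2 gave an adjusted p of 0.0473. The biotin-negative libraries serve in this comparison and in the one against biotin-positive libraries, so the values of the 2 comparisons are not independent.

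**Figure D2:**
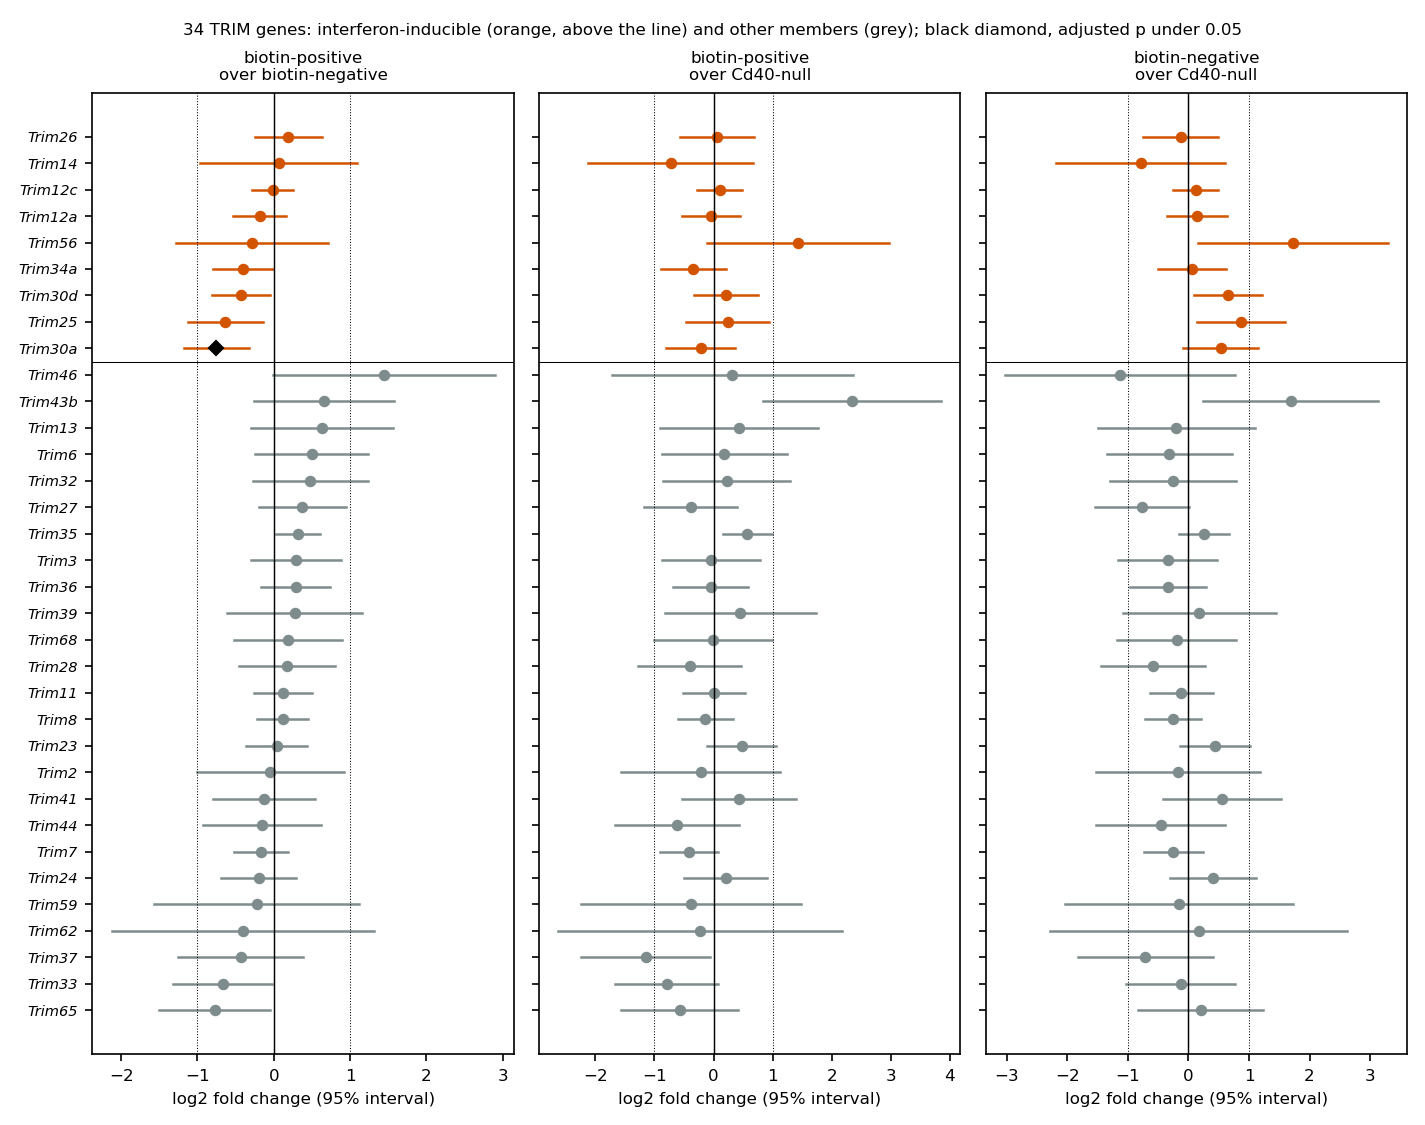
Fitted log2 fold change (points) and 95% interval (bars) of the 34 TRIM genes in each of the 3 comparisons, interferon-inducible members above the horizontal line and other members under it, each set ordered by its value in the left panel. Trim30a in the left panel is the only diamond, which marks an adjusted p under 0.05, and dotted lines mark 2-fold.

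The precision behind these negative results differs between members. Between biotin-positive and biotin-negative libraries the 95% interval lay inside 2-fold either way in 18 of the 34 members, 5 interferon-inducible and 13 others. It reached 2-fold in the other 16, for which a change of that size was not excluded by the interval. The intervals were wider against the 2 Cd40-null libraries and lay inside 2-fold in 14 members for biotin-positive and 9 for biotin-negative libraries.

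The family spans a wide range of levels. Per kb of the longest protein-coding transcript, Trim35 was highest, at 108 ± 21.9 CPM per kb in biotin-positive, 85.9 ± 13.2 in biotin-negative and 72.3 ± 2.07 in Cd40-null libraries (SD, n = 6, 6 and 2). Trim35 was first described in mouse macrophages as an inducer of apoptosis. Its lowest library, at 62.3 CPM per kb, lay above the highest library of the next gene, Trim34a, at 48.9 CPM per kb. Trim34a, Trim26, Trim12c, Trim30a, Trim7 and Trim12a followed, with means over all libraries of 34.4, 24.2, 23.8, 19.8, 19.4 and 19.1 CPM per kb and ranges that overlapped. Thus 5 of the 7 highest members per length were interferon-inducible, while Trim56, also on that list, was the lowest of the 34 at 0.429 CPM per kb. On the CPM scale Trim35 was at 291.5 to 498.4 in biotin-positive libraries (median 409.6), against 229.1 to 372.3 in biotin-negative libraries (median 326.6) and 260.4 and 271.1 in Cd40-null libraries. Its log2 fold change was 0.32 over biotin-negative (SE 0.14, adjusted p = 0.174) and 0.57 over Cd40-null libraries (SE 0.20, adjusted p = 0.176).

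**Figure D3:**
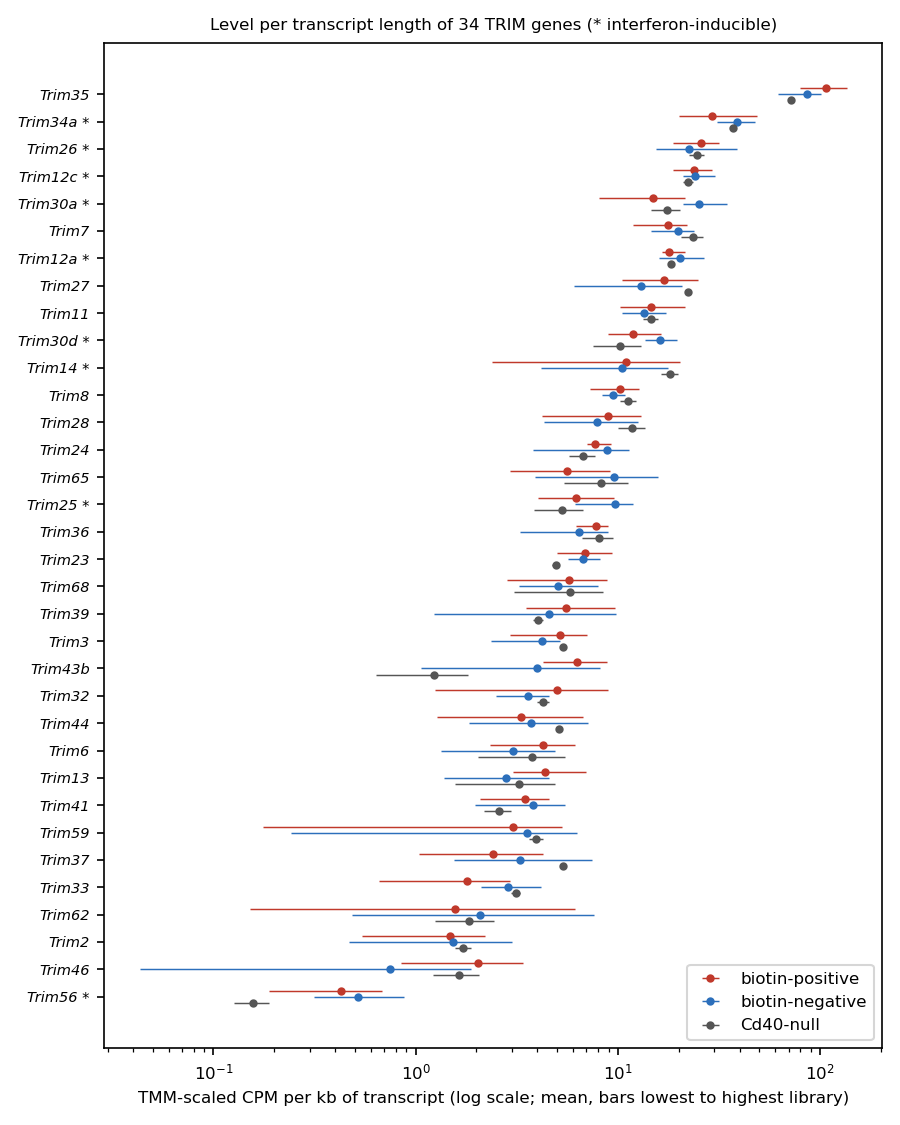
Level of each TRIM gene per kb of its longest protein-coding transcript (log axis), ordered by the mean over all libraries, with the mean of each group as a point and the lowest to highest library as a bar (n = 6, 6 and 2). Trim35 lies above the rest in every library, and asterisks mark the interferon-inducible members.

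The remaining members are given by their C-terminal domains. None of them passed the test in any comparison. Among the 3 nuclear members with a PHD finger and bromodomain, Trim33 (TIF1-gamma, a regulator of TGF-beta and SMAD signalling) was at 5.82 to 26 CPM in biotin-positive libraries (median 17.6), against 18.7 to 37 CPM in biotin-negative libraries (median 24.6) and 26.3 and 29.1 CPM in Cd40-null libraries. Its log2 fold change was -0.67 over biotin-negative libraries (SE 0.31, adjusted p = 0.214). Trim28 (KAP1), the corepressor that silences retroelements with zinc-finger proteins, had a value of 0.17 (adjusted p = 0.827), and Trim24 had -0.20 (adjusted p = 0.724). Of the 3 members with NHL repeats, Trim2, Trim3 and Trim32, the values were -0.05, 0.29 and 0.48. The 2 members with a COS box, which bind microtubules, were Trim36 (0.29) and Trim46 (1.44, SE 0.69, adjusted p = 0.24). Trim46 was low, at 2.77 to 11.1 CPM in biotin-positive libraries (median 6.57), against 0.141 to 6.10 CPM in biotin-negative libraries (median 2.17) and 3.98 and 6.66 CPM in Cd40-null libraries.

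A class of 10 other members was listed by the SPRY domain, Trim35 among them. The number is that of the class and does not count SPRY domains in members listed elsewhere. Trim65, a ligase for the RNA sensor MDA5 in human cells, was at 11.9 to 37.1 CPM in biotin-positive libraries (median 22.1), against 15.7 to 63.7 CPM in biotin-negative libraries (median 38.7) and 21.8 and 45.3 CPM in Cd40-null libraries. Its log2 fold change was -0.77 over biotin-negative libraries (SE 0.34, adjusted p = 0.203). The rest of this class, Trim6, Trim7, Trim11, Trim27, Trim39, Trim41, Trim62 and Trim68, had values between -0.40 (Trim62) and 0.50 (Trim6). Trim13 and Trim59, which have a transmembrane segment, were at 0.63 and -0.23. Of the 4 with other C-termini, Trim8, Trim23, Trim37 and Trim44, the values were 0.12, 0.04, -0.43 and -0.16. Trim43b was placed in no class, and its value was 0.66. Trim37, whose human counterpart is mutated in mulibrey nanism, was at 5.88 to 24 CPM in biotin-positive libraries (median 13.4), against 30.1 and 30.3 CPM in Cd40-null libraries (log2 fold change -1.15, SE 0.52, adjusted p = 0.333).

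A larger part of the spread in several members lay between libraries of the same group. Trim2, a ligase with NHL repeats, was at 4.04 and 4.55 CPM in biotin-positive replicates 4 and 5 and at 10.6 to 16.4 CPM in the other biotin-positive libraries. The same gene was at 3.49 and 5.01 CPM in biotin-negative replicates 2 and 3 and at 9.77 to 22.2 CPM in the other biotin-negative libraries. Trim14 and Trim28 were also lower in these 4 libraries than in all the other 10. Of all 14217 genes tested, 93 (0.65%) had this pattern, and 3 of the 34 members were among them. The 4 libraries form the low end of the first principal component of the deviations from group means, which held 16.1% of that variance over 7905 genes with a mean of at least 10 CPM. With this component as a covariate, an alternative chosen after seeing the data, Trim30a had a log2 fold change of -0.75 between biotin-positive and biotin-negative libraries (adjusted p = 0.022). What sets the 4 libraries apart was not tested.

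**Figure D4:**
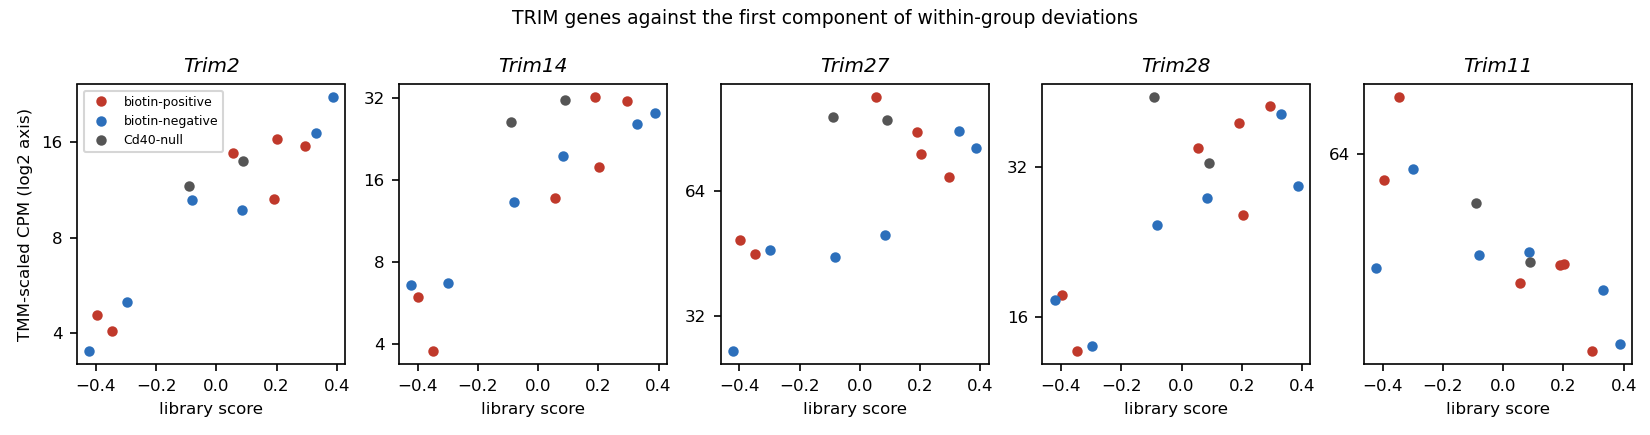
Level of 5 TRIM genes (TMM-scaled CPM, log2 axis) in each of the 14 libraries against the library's score on the first component of within-group deviations (no unit). Trim2, Trim14 and Trim28 are lowest in the 4 libraries at the left, which are 2 biotin-positive and 2 biotin-negative ones, while Trim11 runs the other way.

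TRIM proteins that carry other names stand outside the rule, and 4 of their genes were tested. In biotin-positive libraries 2 of the 4 were lower than in biotin-negative libraries, where 4.05% of all genes were lower. Against Cd40-null libraries 2 of the 4 were lower, where 1.05% of all genes were. Between biotin-negative and Cd40-null libraries 0 were called, against 0.317% of all genes. Mefv encodes pyrin (TRIM20), an inflammasome sensor of bacterial toxins that inactivate RhoA. It was at 26.2, 18.6, 29.7, 58.8, 26.2 and 4.90 CPM in biotin-positive replicates 1 to 6, against 144.3, 105.9, 127.4, 120.1, 131.7 and 133.7 CPM in biotin-negative replicates 1 to 6 and 77.4 and 125.4 CPM in Cd40-null libraries. No biotin-positive library reached the level of any biotin-negative or Cd40-null one. The log2 fold change was -2.22 over biotin-negative (SE 0.37, adjusted p = 0.00104) and -1.89 over Cd40-null libraries (SE 0.46, adjusted p = 0.0385). Mid1, a microtubule-bound ligase, averaged 14.2 CPM in biotin-positive libraries, against 32.9 CPM in biotin-negative libraries, without overlap (log2 fold change -1.21, SE 0.28, adjusted p = 0.0112), and 12.5 CPM in Cd40-null libraries. Pml, the organiser of PML nuclear bodies, averaged 27.5 CPM in biotin-positive libraries, 42.6 CPM in biotin-negative libraries and 78.3 CPM in Cd40-null libraries. In biotin-positive over Cd40-null libraries the log2 fold change of Pml was -1.51 (SE 0.33, adjusted p = 0.0206), and over biotin-negative libraries -0.63 (adjusted p = 0.144). Mid2 was at 0 in both Cd40-null libraries and was not called in any comparison. Mefv is known from myeloid cells, and the monocyte and macrophage markers moved with the same groups as given above for Trim30a. Their part in the Mefv difference was not tested.

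Of 23 tested genes whose proteins work with TRIM ligases, 2 were higher and 1 lower in biotin-positive than in biotin-negative libraries, where 3.7% of all genes were higher and 4.05% lower. Vcp, the unfoldase that acts with TRIM21 in the breakdown of antibody-bound virus, averaged 1560 CPM in biotin-positive, 872 CPM in biotin-negative and 885 CPM in Cd40-null libraries. Its log2 fold change was 0.84 over biotin-negative (SE 0.08, adjusted p = 1.45e-05) and 0.82 over Cd40-null libraries (SE 0.12, adjusted p = 0.00178). Uba7, the activating enzyme for the ubiquitin-like ISG15, averaged 810 CPM in biotin-positive libraries, against 586 CPM in biotin-negative libraries (log2 fold change 0.47, SE 0.09, adjusted p = 0.00388). Isg15 itself averaged 5.25 CPM in biotin-positive libraries, against 14.9 CPM in biotin-negative libraries (log2 fold change -1.50, SE 0.37, adjusted p = 0.0173). Against Cd40-null libraries Vcp was the only partner called for biotin-positive libraries, and none was for biotin-negative libraries.

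A further 32 rows of the count table have a symbol of the same form but are not among the 10321 rows of the normalized table. Of these, 12 were kept for testing and 0 were called by edgeR's quasi-likelihood test in any comparison, with a lowest adjusted p of 0.237. Trim21, the cytosolic antibody receptor, was among them at 0.213 to 3.62 CPM in biotin-positive, 0.429 to 2.06 CPM in biotin-negative and 0.483 and 1.19 CPM in Cd40-null libraries. The highest of the 32 by mean level was Trim45, at 3.49 CPM.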

How the data were processed

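The members and gene lists were chosen with earlier results of these data known. Per the submitters' processing notes reads were handled on mm10 with RSEM 1.2.8, Bowtie2 2.1.0 and DESeq2 1.16.0; the annotation is not given in the sources used here. The authors deposited RSEM expected counts for 23420 symbols and a normalized signal for 10321, which is each count over a library-specific factor (largest relative deviation 5.11e-15).

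Counts were rounded and filtered with filterByExpr (min.count 10), which left 14217 genes. They were scaled by TMM and fitted in edgeR 4.0.16 (R 4.3.3; glmQLFit, robust) over all 14 libraries with a group factor. Tests were two-sided with Benjamini-Hochberg adjustment over all genes. SE was taken as |log2 fold change| over sqrt(F). The pipeline was tested on simulated counts, with changes set in genes drawn from all those tested. Between the biotin groups it recovered 28 of 100 changes of 2-fold and 64 of 100 of 4-fold. For biotin-positive over Cd40-null libraries these were 11 and 48, and for biotin-negative over Cd40-null libraries 14 and 46. A gene that was not called may therefore have changed by 2-fold or more. Alternatives used limma 3.58.1, DESeq2 1.42.0, other filters, covariates, a replicate block and each library left out.

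Genes named are every called member, every interferon-inducible member, other members with a group mean of at least 5 CPM, and genes with the smallest p of the pathway lists. Gene positions and transcripts are GENCODE M21 on GRCm38, and promoters are RefSeq's. Some items that this rule took are not reported here.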

Additional observations from a re-analysis of the deposited data

Results flagged for a closer look

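In 68 groups of 6 libraries (34 genes in each biotin group), 4 held a library far from the others by Dixon's test at the 95% level, and chance flags about 1 in 20 groups. Trim12a in biotin-positive replicate 1 was at 32.7 CPM, with the nearest other library at 27.6 CPM. Trim30a in biotin-negative replicate 3 was at 131 CPM, with the nearest at 97.3 CPM; without this library the adjusted p of Trim30a was 0.0731. Trim62 was at 23 CPM in biotin-positive replicate 1, with the nearest at 4.08 CPM, and at 28.7 CPM in biotin-negative replicate 6, with the nearest at 6.86 CPM.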

How the results depend on the processing

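Between biotin-positive and biotin-negative libraries the count of TRIM genes called was 1, and it was 0 once detected genes per library entered as a covariate and 0 with the monocyte and macrophage marker level in that place. Both covariates separate the biotin groups without overlap, so fits with them cannot tell covariate from group. Over fits without one library the count of TRIM genes called ran from 0 to 3. Trim30a was called in 18 of 24 alternatives and kept its sign in all 24 (log2 fold change -0.88 to -0.62). Against Cd40-null libraries, biotin-positive libraries gave 1 called TRIM gene with DESeq2, 1 with limma on the deposited signal and 1 with only the 2 groups compared, in place of 0. Biotin-negative libraries gave 1 with DESeq2. The cause of these shifts was not tested. The median of the interferon-inducible members kept its sign under the alternatives run in both comparisons with biotin-negative libraries. Between the biotin groups it was -0.29, and it ran from -0.39 to -0.10 over fits without one library, the -0.10 without biotin-negative replicate 2. With covariates added after seeing the data it was -0.27 with detected genes and -0.22 with the marker level. For biotin-negative over Cd40-null libraries it was 0.15, and 0.35 with the detected-genes covariate, also added after seeing the data, and 0.27 with the replicate block. For biotin-positive over Cd40-null libraries it was 0.06, and -0.04 with a narrower list, -0.03 with the marker covariate, -0.01 without biotin-positive replicate 3 and -0.05 without Cd40-null replicate 2. Over all genes, calls between the biotin groups numbered 1102, and 1758 with DESeq2, 11 with detected genes and 63 with the marker level as covariates. For biotin-positive over Cd40-null libraries they numbered 323, and 886 with DESeq2, 606 with limma voom, 129 with the replicate block, 111 with the marker covariate and 78 and 95 without either Cd40-null library. For biotin-negative over Cd40-null libraries they numbered 45, and 359 with DESeq2, 81 with limma on the deposited signal, 29 with only the 2 groups, 19 with the block, 6 with the detected-genes covariate and 21 and 12 without either Cd40-null library. With the replicate number as a block the counts were 1, 0 and 0; same-numbered libraries did not deviate together (correlations -0.033 to 0.044), so the numbers give no pairing. The Cd40-null group has 2 libraries, and its comparisons had the wider intervals.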
